A study of Drosophila melanogaster with 3 samples.

Results

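The Hox genes of Drosophila melanogaster lie in 2 clusters on chromosome arm 3R. The Antennapedia complex holds labial (lab), proboscipedia (pb), Deformed (Dfd), Sex combs reduced (Scr) and Antennapedia (Antp), and the bithorax complex holds Ultrabithorax (Ubx), abdominal-A (abd-A) and Abdominal-B (Abd-B). These 8 genes, of 18164 annotated on the main arms, were chosen by name, with no measured value in the rule. Binding of a CG8944 fusion protein was described at every peak whose summit lay within 500 bp of one of their transcription start sites (TSSs), inside one of them, or in the stretch to the next gene of the same cluster. Together the genes and stretches formed a territory of 338 kb for the Antennapedia complex and one of 316 kb for the bithorax complex.

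Hox genes encode homeodomain transcription factors that give the segments of the body axis their identity. Within each cluster their order along the chromosome follows the order of the body regions in which they act, from head (lab) to the end of the abdomen (Abd-B). Their expression is set by long enhancer regions, by insulators that keep these regions apart, and by Polycomb and trithorax group proteins, which hold the genes off or on through development. Much of this regulatory DNA lies in introns and between the genes, far from the start sites.

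The data were chromatin immunoprecipitation with sequencing (ChIP-seq) of whole Drosophila embryos of mixed sex, collected over 0 to 24 h. All samples came from 1 transgenic line that stably carries CG8944 with GFP at its C terminus, and an anti-GFP antibody was used to recover chromatin sonicated to 200 to 800 bp. The 3 biological replicates form 1 group with no second condition, and neither a control library nor an untagged line was analysed here. In such bulk chromatin, binding in fewer cells and less binding per cell cannot be told apart.

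The peaks were taken from lists on the dm6 build. A relaxed list for each replicate held 30000, 30000 and 27393 entries, a relaxed list of the pooled replicates held 23886, and 3511 of these pooled entries (14.7%) passed the authors' test of reproducibility across replicates. Relaxed lists hold background as well as peaks. The signal of an entry is the authors' value, on a scale particular to its list, so it served only to rank and describe entries within a list. The reproducible peaks were the 3511 pooled entries with the highest signal, from 107 upward. In each replicate the 3511 entries with the highest signal are called the strongest entries. The depth of sequencing behind the entries was unknown, because no counts of reads are given.

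The Hox territories held 14 reproducible sites, 7 in each complex, numbered 1 to 14 along arm 3R. The sequences of the 8 with the highest pooled signal are shown because they are the bound DNA that the results below describe. Each is the 101 bases centred on the summit, from the plus strand of dm6. Capitals mark matches on either strand to 14 short motifs, given here with the protein or element they are named for: TAATTA (homeodomain core), TGATNNAT (Exd-Hox composite), GAGAG (GAGA element), GCCAT (Pho), CGATA (BEAF-32), TATCGATA (DRE, which contains the BEAF-32 letters), GAAAA (Dsp1), CAGGTA (Zelda), CACACA (a short repeat), CACCC (a zinc-finger box), CACGTG (E-box), AGNNGGCGC (CTCF core), TGCATA (Su(Hw)) and GGTCACAC (M1BP).
site 1, bcd promoter, chr3R:6759612-6759712: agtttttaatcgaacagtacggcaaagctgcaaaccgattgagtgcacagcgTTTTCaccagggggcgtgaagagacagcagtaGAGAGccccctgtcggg
site 4, intron of lncRNA:CR44931, chr3R:6881776-6881876: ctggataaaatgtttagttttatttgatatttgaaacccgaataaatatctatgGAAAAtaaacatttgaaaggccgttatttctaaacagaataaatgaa
site 6, Antp intron, chr3R:6914584-6914684: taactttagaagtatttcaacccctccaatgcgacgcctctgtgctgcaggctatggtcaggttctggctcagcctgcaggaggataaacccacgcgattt
site 7, Antp intron, chr3R:6936268-6936368: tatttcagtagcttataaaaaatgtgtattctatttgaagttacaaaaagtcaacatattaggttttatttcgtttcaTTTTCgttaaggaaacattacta
site 8, lncRNA:bxd intron, chr3R:16748712-16748812: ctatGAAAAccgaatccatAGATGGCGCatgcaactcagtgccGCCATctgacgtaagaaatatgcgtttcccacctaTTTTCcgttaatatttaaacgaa
site 10, between Ubx and abd-A, chr3R:16798821-16798921: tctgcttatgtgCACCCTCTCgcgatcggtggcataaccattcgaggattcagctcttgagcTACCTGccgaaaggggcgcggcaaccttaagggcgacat
site 11, lncRNA:iab8 intron, chr3R:16869371-16869471: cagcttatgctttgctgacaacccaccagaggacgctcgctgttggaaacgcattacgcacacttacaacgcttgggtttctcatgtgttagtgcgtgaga
site 12, lncRNA:iab8 intron, chr3R:16919265-16919365: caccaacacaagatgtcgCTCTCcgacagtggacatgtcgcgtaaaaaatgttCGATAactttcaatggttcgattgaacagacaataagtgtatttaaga

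The bound Hox sequences did not share a single word. Sites 6 and 11 held no match at all within 50 bp of the summit. Site 10, the strongest, held the CACCC word running into a GAGA element, and the only CAGGTA among the 14 sites. Within 50 bp CACCC was at 2 of 14 sites, against 8.32% of all reproducible summits and 14.3% of the remaining pooled entries. CAGGTA was at 1, against 1.91% and 2.13%. CACACA was at 0, against 6.84% and 8.18%, and CACGTG at 1, against 1.08% and 1.42%. The GAGA element, bound by GAGA factor at many Polycomb response elements, was within 50 bp of 4 of 14 summits (sites 1, 3, 10 and 12), against 10.1% of all reproducible summits and 12.7% of the remaining pooled entries. The Pho core was at 3 (sites 5, 8 and 14), against 16.1% and 22.1%. CGATA was at 1 of the 14, against 18.7% and 11.7%, and the DRE was at none, against 2.42% and 0.775%.

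The CTCF core was one of 3 motifs added after the values had been seen. It occurred within 50 bp of 2 of 14 summits, against 2.85% of all reproducible summits. The other added motifs, Su(Hw) and M1BP, were at 0 of 14, against 9.06% and 1.37%. Within 100 bp it occurred at 4, against 4.36% of all reproducible summits and 3.89% of the remaining pooled entries. These were site 5 in Antp (AGATGGCGC, 25 bp from the summit), site 8 in lncRNA:bxd (AGATGGCGC, 27 bp), site 11 (AGGGGGCGC, 70 bp) and site 12 (AGGTGGCGC, 86 bp), both in lncRNA:iab8. CTCF is an insulator protein that binds boundaries of the bithorax complex. At sites 5 and 8 the CTCF match contains ATGGC, the Pho core on the other strand, so that these matches overlap. The window of 100 bp was also chosen after the values had been seen. In it the GAGA element was at 7 of 14 sites, against 22.9% of all reproducible summits, and Su(Hw) at 3, against 15.7%. Most of the motifs named above were near or below their background there, with the Pho core at 3 of 14 (against 27.7%), CGATA at 3 (against 32.4%), GAAAA at 9 (against 74.3%), and TAATTA and the Exd-Hox composite at 2 each (against 13.7% and 13.4%).

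The 2 motifs of Hox proteins themselves were each at 14.3% of the sites within 50 bp, above their shares over all reproducible summits. TAATTA, the core that most Hox homeodomains recognise, was within 50 bp of sites 2 and 9 (2 of 14, against 6.98% of all reproducible summits). The composite of Exd, the cofactor of Hox proteins, with a Hox protein was at sites 9 and 13 (2 of 14, against 7.29%). GAAAA was at 7 of 14, against 47.4%. The windows around the Hox sites had a median GC content of 40.6%, from 23.8% to 56.4%, between the 35.6% of all reproducible peaks and the 47.5% of the remaining pooled entries. With 14 sites each of these shares rests on a few matches, and a match describes the letters in a window and not a site in use.

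None of the 8 Hox genes had a reproducible peak at a promoter. Over all annotated genes 14.1% had one. Among the 1865 protein-coding genes at least as long as Dfd, the shortest Hox gene at 10.6 kb, the share was 22.5%. From the 19 annotated Hox TSSs the nearest reproducible summit was 2.315 kb away at Abd-B, a median of 22.1 kb away, and 96.2 kb away at lab. With a summit anywhere inside the gene counted as well, 2 of 8 Hox genes were bound, Antp at 3 sites and Abd-B at 2. The same share was 17.4% over all genes and 41.3% over the protein-coding genes of at least the length of Dfd. A list of 8 genes is too short to set either count apart from these shares.

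Weak entries near the Hox start sites were found in the relaxed lists, at 4 of 8 genes in the pooled list, beside 39.9% of all annotated genes. Among all genes with a pooled promoter entry, 35.4% also had a reproducible promoter peak, and of these 4 Hox genes none did. The 4 genes are too few to be set apart from that share. The entry nearest to a start site lay 72 bp upstream of an Antp TSS, with a signal of 50.8 and rank 12578 of 23886. The others lay 361 bp upstream of another Antp TSS (signal 38.2, rank 23751), 88 bp downstream at Abd-B (48.8, rank 13702), 444 bp downstream at abd-A (42.9, rank 18575) and 463 bp downstream at Scr (38.3, rank 23584). All 5 were thus below the reproducible peaks by a wide margin, and a pair of them stood near the end of the list.

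The replicates placed such weak entries at different Hox promoters. Replicates 1, 2 and 3 had a promoter entry at 5, 5 and 4 of the 8 genes, and none of these was among the strongest entries. At the Antp TSS with the nearest pooled entry, replicates 2 and 3 had entries 50 and 55 bp away, at ranks 25687 and 9691, and the nearest entry of replicate 1 was 1618 bp away. At Ubx, replicate 1 had an entry 53 bp from the TSS at rank 23895, while the nearest entries of replicates 2 and 3 were 1623 and 940 bp away. Antp and Dfd were the genes with a promoter entry in each replicate, Antp at different start sites. At Dfd the distances were 376, 27 and 42 bp and the ranks 13314, 26863 and 16348. Of the 5 pooled promoter entries, 3 overlapped an entry of replicate 1, 4 of replicate 2 and 1 of replicate 3. The overlap with replicate 2 at abd-A was with an entry whose summit lay 713 bp from the TSS, outside the promoter window.

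**Figure D1:**
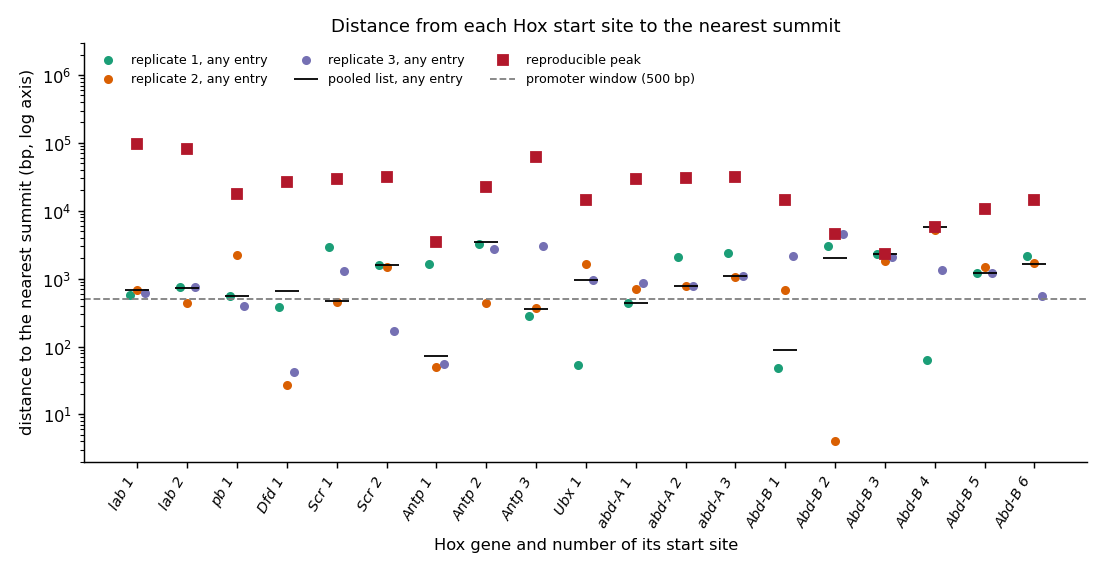
Distance in bp (log axis) from each of the 19 Hox start sites, numbered within each gene along the chromosome, to the nearest summit: circles are the 3 replicate lists, dashes the pooled list, squares the reproducible peaks, and the dashed line the 500 bp promoter window. No square falls under the line, and the circles and dashes under it belong to weak entries.

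In the Antennapedia complex binding began far from lab. The genes lab and pb, which act in the head and the mouthparts, held 7 and 11 pooled entries but no reproducible peak, and the first site of the complex was 98.2 kb from its lab end. The strongest entry in lab, in an intron at chr3R:6667227-6667626, had a signal of 100.2 in the pooled list (rank 3834), just under the lowest reproducible signal of 107. It ranked 1634, 10889 and 26471 in replicates 1, 2 and 3, so that it was strong in replicate 1 alone. In pb the strongest entry, also intronic (chr3R:6723665-6724064), had a signal of 96.5 and rank 4028, and ranked 3334, 5679 and 19401 in the replicates. The 29.2 kb between lab and pb carry a cluster of 8 cuticle protein genes and held no reproducible peak. A single pooled entry lay there, 101 bp upstream of the cuticle gene Edg84A with a signal of 40.6. The density was thus 3.42 pooled entries per 100 kb, against 18.4 in the rest of arm 3R. In lab it was 40.8, the highest of the genes and stretches. The replicate lists held 4, 6 and 1 entries in the stretch between lab and pb, none among the strongest. That was 13.7, 20.5 and 3.42 per 100 kb, against 22.5, 23.4 and 21.3 in the rest of arm 3R.

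Between pb and Dfd lie 3 further homeobox genes, zen, zen2 and bcd, which are not homeotic. Site 1, the second strongest of the 14, was at the promoter of bcd, the gene of the anterior morphogen Bicoid. Its summit lay 196 bp upstream of the TSS, in the peak chr3R:6759577-6759788, with a pooled signal of 412 (rank 352). It ranked 523, 355 and 262 in replicates 1, 2 and 3, with summits within 5 bp of the pooled one. Its neighbours zen and zen2 had no entry at a promoter or inside, even in the pooled list, and neither did ftz, the pair-rule homeobox gene between Scr and Antp. Site 2 (chr3R:6762728-6763127) lay inside Ama, which encodes an immunoglobulin-domain protein, within 500 bp of start sites of Ama and of lncRNA:CR45593. It was the weakest of the 14, with a signal of 110 (rank 3386) and ranks of 2186, 3547 and 6231. It was also the exception among them in summit position, 234 and 281 bp away in replicates 2 and 3. A separate pooled entry beside it (chr3R:6762962-6763361, signal 94.1, rank 4161) was not reproducible. The replicate 2 summit fell on the same base as the summit of that entry, and the replicate 3 summit near it. The ranks of 3547 and 6231 are thus those of entries centred on or near this neighbour.

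Dfd and Scr, which act in the head and the first thoracic segment, had no reproducible peak. Dfd held 2 pooled entries, the stronger in a coding exon with a signal of 54.2 (rank 10823). At its promoter or inside, replicates 1, 2 and 3 held 2, 7 and 2 entries, none among the strongest, so that replicate 2 stood apart. Scr held 4, of which the strongest, in an intron, had a signal of 60.2 (rank 8649) and was found in replicate 1 alone, at rank 3802. Site 3 (chr3R:6818512-6818911) lay between these genes in intergenic sequence, 1182 bp from a lysine tRNA gene, with a signal of 111 (rank 3340). It was among the strongest entries in replicate 2 (rank 2453) and not in replicates 1 and 3 (ranks 6214 and 7854). Site 4 (chr3R:6881626-6882025), between Scr and Antp in an intron of lncRNA:CR44931, was firmer, with a signal of 179 (rank 1707) and ranks of 1391, 1465 and 2418.

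Antp, which acts in the thorax, is the longest Hox gene at 103 kb and had the most entries. Its 28 pooled entries at a promoter or inside included 3 reproducible peaks, all intronic, and the replicates held 30, 35 and 23 entries there. Site 6 (chr3R:6914434-6914833) was the strongest, with a signal of 201 (rank 1402) and ranks of 1115, 1644 and 1544 in replicates 1, 2 and 3. It lay 18206 bp downstream of the nearest Antp TSS. Site 5 (chr3R:6912225-6912624) lay close by, with a signal of 131 and ranks of 3624, 3001 and 1635. Site 7 (chr3R:6936118-6936517), 3478 bp upstream of an internal Antp TSS, had a signal of 158 and ranks of 2706, 1813 and 2560. Sites 6 and 7 were thus among the strongest entries of every replicate, and site 5 narrowly missed in replicate 1. All 3 also lie within CG46458, a gene annotated over the same sequence, so the annotation alone does not tie them to Antp.

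In the bithorax complex Ubx, which specifies the posterior thorax and the first abdominal segment, had no reproducible peak in its 77.8 kb. It held 8 pooled entries, or 10.3 per 100 kb, the lowest density of the 8 genes in the pooled list. Ubx was also lowest in replicate 2, at 14.1 per 100 kb. It was not lowest in replicates 1 and 3, at 11.6 and 15.4, where Dfd had 9.44 in each. The strongest pooled entry of Ubx, in an intron (chr3R:16718002-16718401), had a signal of 100.4 (rank 3822). It ranked 4619, 3873 and 5589 in the replicates, with the summit at the identical base in all 3, so it was similarly placed in each replicate and under the threshold in each. The first site of the complex came 92.1 kb from the Ubx end.

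The stretch between Ubx and abd-A held the strongest Hox site. Site 10 (chr3R:16798763-16799022) lay in intergenic sequence, 1729 bp upstream of lncRNA:CR45750 and 29234 bp downstream of an abd-A TSS, past the end of that gene. Its pooled signal was 662 (rank 120 of 23886). It ranked 119, 132 and 116 in replicates 1, 2 and 3, with summits 3, 17 and 8 bp from the pooled one. No other Hox site was as strong or as evenly ranked. Sites 8 and 9 lay in introns of lncRNA:bxd, a noncoding RNA of the regulatory region upstream of Ubx. Site 8 (chr3R:16748562-16748961), 14336 bp upstream of the Ubx TSS, had a signal of 169 and ranks of 1806, 2629 and 1439. Site 9 (chr3R:16769383-16769782) had a signal of 126 and ranks of 3643, 3127 and 2504.

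abd-A, which acts in the anterior abdomen, held 5 pooled entries and no reproducible peak. Its strongest entry, in a coding exon, had a signal of 70.2 (rank 6482) and ranked 16565, 17247 and 3783 in the replicates. The 97.2 kb to Abd-B, most of it covered by lncRNA:iab8, the host transcript of the microRNA mir-iab-8, held 2 sites. Site 11 (chr3R:16869221-16869620) had a signal of 161 and ranks of 2097, 2039 and 1691, within a narrow span. It also lies within MSAmiP, a protein-coding gene annotated over the same sequence. Site 12 (chr3R:16919115-16919514), 14927 bp downstream of an Abd-B TSS, had a signal of 192 and ranks of 3235, 1166 and 1407. Both were among the strongest entries of every replicate.

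Abd-B, which specifies the posterior abdomen and the genitalia from several alternative promoters, held 10 pooled entries and sites 13 and 14, both intronic. Site 13 (chr3R:16948696-16949095), 4623 bp upstream of an internal TSS, had a signal of 114 and ranks of 3281, 5351 and 3319. Site 14 (chr3R:16957766-16958165), 2315 bp downstream of a TSS, had a signal of 118 and ranks of 3297, 22259 and 1513. Site 14 was thus among the strongest entries of replicates 1 and 3, and in replicate 2 it was in the weak part of the list. The annotation used holds no boundary elements or Polycomb response elements, so none of the 14 sites was assigned to a named one.

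**Figure D2:**
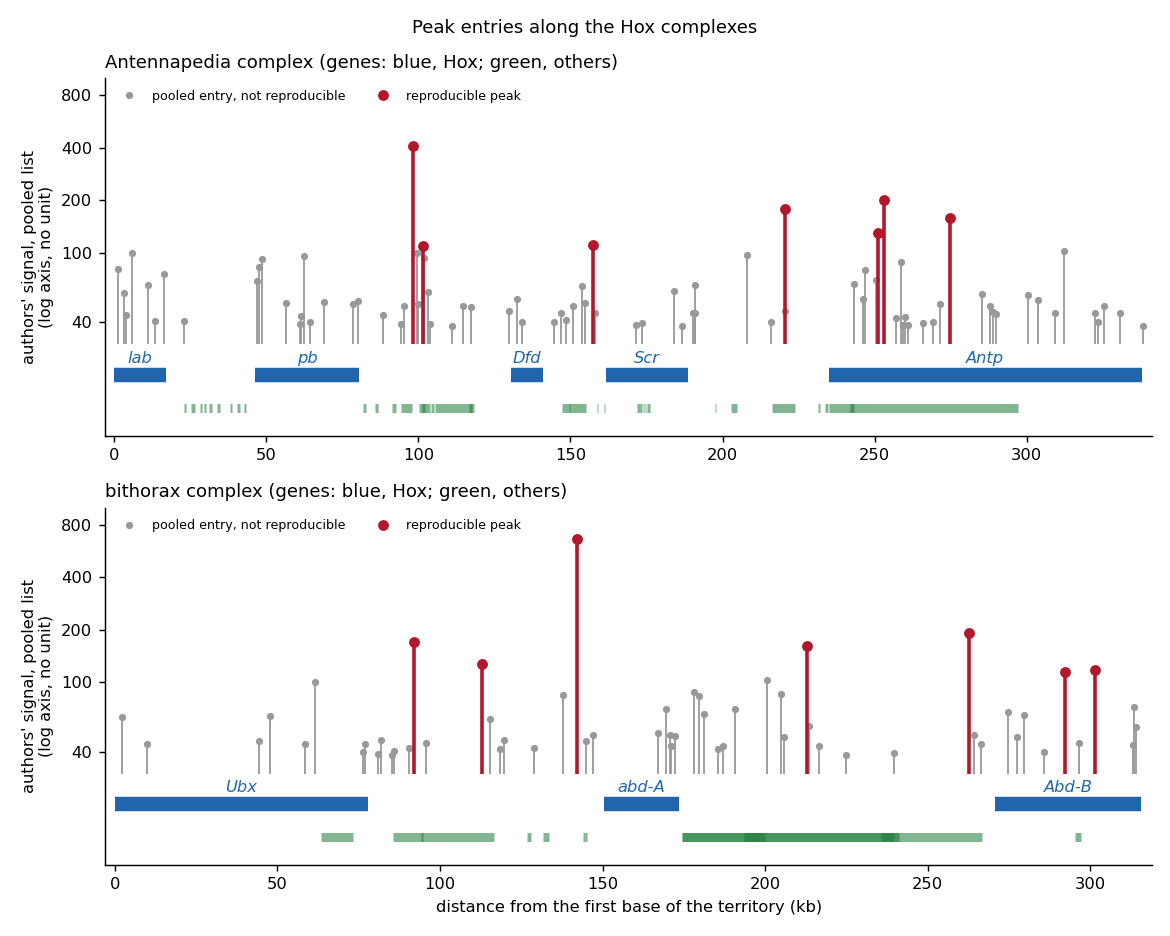
Pooled peak entries along each complex, with distance from the first base of the territory in kb (x axis) and the authors' signal in the pooled list on a log axis (y axis): red stems are the 14 reproducible peaks, grey stems the remaining entries, blue bars the Hox genes and green bars other annotated genes. Red stems stand at bcd, in the introns of Antp and Abd-B and elsewhere between the Hox genes. The highest, at 662, lies between Ubx and abd-A.

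The 14 sites overlapped an entry in every replicate, but not always a strong one. At 13 of them the 3 replicate summits lay within 100 bp of the pooled summit. The exception was site 2, where the summits of replicates 2 and 3 lay on or near that of a separate pooled entry beside it. The sites come from these same replicates pooled, so the overlap is no separate evidence. Neither count was set beside the same count over all reproducible peaks. Overlap with one of the strongest entries in all 3 replicates held for 8 of 14 sites, namely sites 1, 4, 6, 7, 8, 10, 11 and 12, against 70.0% of all reproducible peaks. These 8 are also the sites with the highest pooled signal. Over the 14, the pooled signal ran from 110 through a median of 160 to 662. Just under the threshold of 107 were 2 further intronic entries at 103: one in lncRNA:iab8, 882 bp from mir-iab-8 (rank 3682, replicate ranks 3349, 8238 and 3111), and one in Antp (rank 3683, replicate ranks 3661, 3178 and 23085). Their signal and that of sites 2 and 3 (110 and 111) differed little, so the number of sites depends on where the authors' threshold fell.

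**Figure D3:**
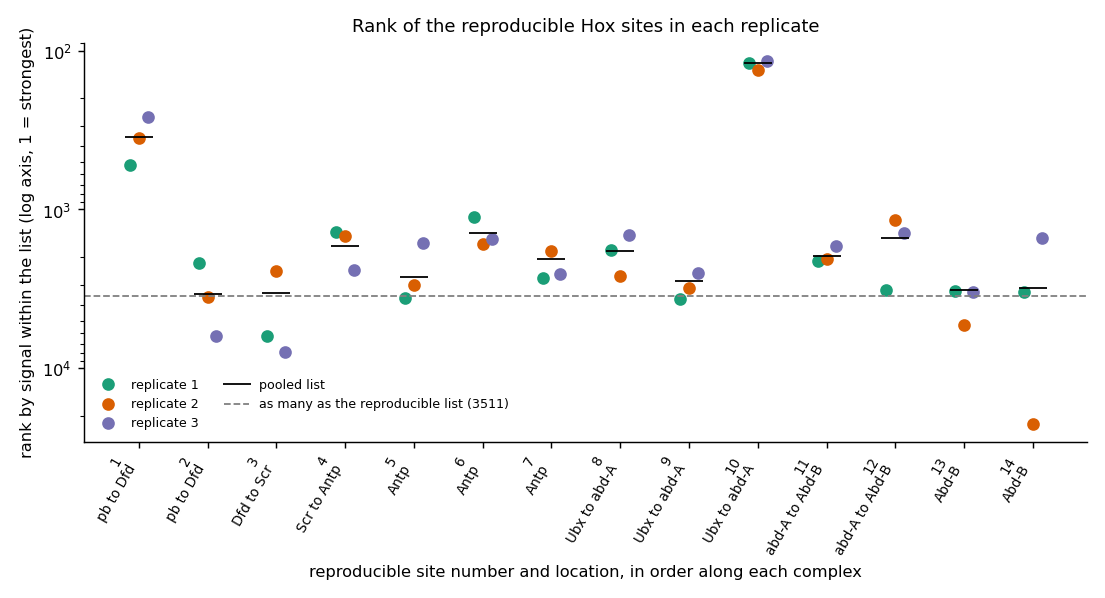
Rank by signal of the 14 reproducible Hox sites (x axis, in order along arm 3R) in the 3 replicate lists (circles) and in the pooled list (dashes), on a log axis with the strongest at the top; the dashed line marks rank 3511. Site 10 lies near rank 120 in every list, while site 14 falls to 22259 in replicate 2.

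Most sites of the territories lay in introns of Hox or other genes, while most of those elsewhere were at promoters. Of the 14 sites 10 were intronic (71.4%, against 31.3% of all reproducible summits), 2 were at promoters (14.3%, against 54.3%) and 2 intergenic (14.3%, against 12.0%). None was in an exon or a UTR outside the promoter windows. Sites 5, 6, 7, 13 and 14 lay in introns of Hox genes. Sites 4, 8, 9, 11 and 12 lay in introns of lncRNA genes between them. The share of intronic bases was not set beside these counts. Among the 138 pooled entries of the territories, 74 were intronic (53.6%, against 32.8% of all pooled entries), 20 were at a promoter (14.5%, against 28.9%) and 12 in coding exons (8.70%, against 18.0%). The pooled list thus also had a larger intron and a smaller promoter share in the territories. The 2 promoter sites belonged to other genes, bcd on the one hand and Ama with lncRNA:CR45593 on the other. Of 54 genes that are not Hox genes in the territories, 15 had a pooled promoter entry and 3 a reproducible promoter peak, against 39.9% and 14.1% of all genes. Ama and lncRNA:CR45593 share site 2, so that these 3 genes rest on 2 peaks.

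**Figure D4:**
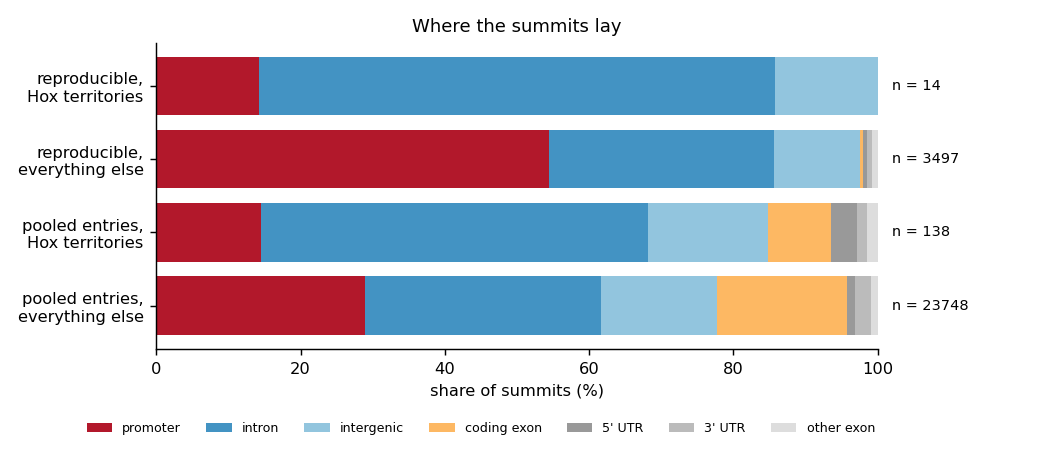
Share of summits (x axis, %) by annotation class for the 14 reproducible peaks and the 138 pooled entries of the Hox territories, each above the same for all other entries. Promoters (red) take 14.3% of the Hox sites, and introns (dark blue) take 71.4%.

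The density of binding in the Hox territories was close to that of the rest of arm 3R. Reproducible peaks lay at 2.14 per 100 kb in the territories (2.07 in the Antennapedia and 2.21 in the bithorax complex) and at 2.55 per 100 kb in the rest of the arm. Among the strongest entries the territories held 15, 14 and 18 in replicates 1, 2 and 3. Their density was 2.39 ± 0.318 per 100 kb (SD, n = 3), against 2.56 ± 0.0578 in the rest of 3R, a difference of -0.163 ± 0.325. The territories were lower in 2 of 3 replicates, and the difference was within the spread between replicates (exact two-sided sign-flip permutation test, p = 0.5). With 3 replicates that test cannot give a p under 0.25. The replicates measure the same territories, so the test does not cover how stretches of the arm differ among themselves. The rest of 3R was counted over its whole length, including any sequence in which no peak can be called.

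The even density hid opposite differences at promoters and elsewhere, a split chosen after the values had been seen. Promoter windows covered 11.0% of the territories and 13.4% of the rest of 3R. Inside them the strongest entries lay at 1.85 ± 0.801 per 100 kb in the territories against 11.3 ± 0.624 in the rest of 3R (SD, n = 3), and the territories were higher in 0 of 3 replicates. Outside them the order turned, with 2.46 ± 0.397 against 1.20 ± 0.0499 per 100 kb, and the territories were higher in 3 of 3 replicates by 1.26 ± 0.438. Either difference gave p = 0.25 in the exact sign-flip permutation test, the smallest that 3 replicates allow, so neither can pass a threshold of 0.05. The spread is again that of repeated measures of the same territories, and not of different stretches of the arm. Reproducible peaks, which come from the same replicates pooled and are no separate evidence, showed the same split. There were 2 in 72.1 kb of promoter windows, or 2.77 per 100 kb against 11.5, and 12 in the 582 kb outside, or 2.06 per 100 kb against 1.16. In all entries of the relaxed lists both differences kept their direction but were smaller in ratio, 28.7 ± 11.6 against 44.7 ± 3.78 per 100 kb in promoter windows and 22.7 ± 2.37 against 18.9 ± 1.49 outside (SD, n = 3).

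**Figure D5:**
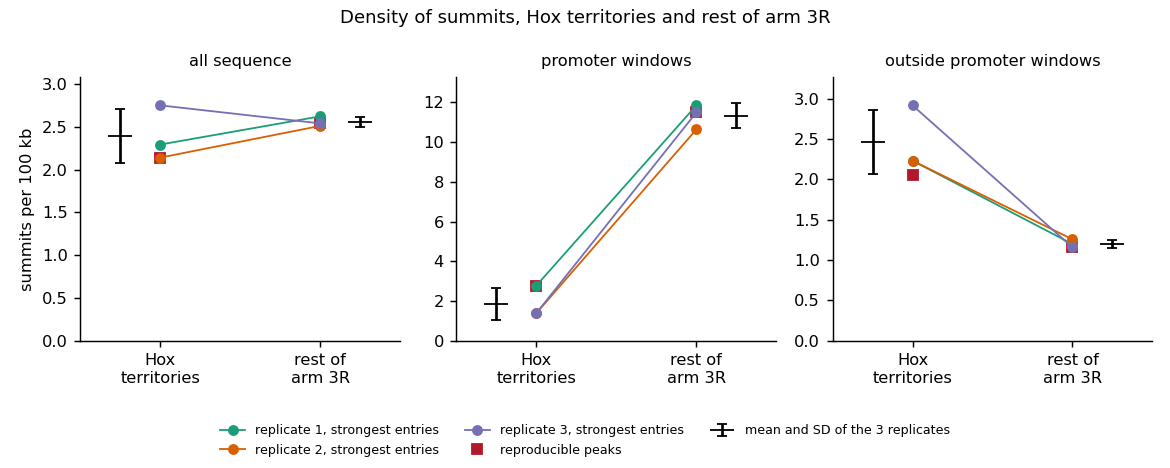
Summits per 100 kb (y axis, from 0) in the Hox territories and in the rest of arm 3R, for all sequence, promoter windows and sequence outside them: lines join the strongest entries of each replicate, black marks give their mean and SD (n = 3), and squares are reproducible peaks. The lines rise steeply to the rest of 3R in promoter windows and fall outside them, in every replicate.

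Reproducible peaks were also a smaller share of the pooled entries than elsewhere, 10.1% in the territories (8.54% in the Antennapedia and 12.5% in the bithorax complex) beside the 14.7% over all. In the replicates the strongest entries made up 10.4% ± 2.49 of the entries in the territories and 12.1% ± 0.643 of all entries (SD, n = 3), so that the gap was within the replicate spread. The 12 gaps between neighbouring Hox sites had a median of 29.4 kb and a mean of 32.2 kb, with 70.6 kb as the longest. The 813 gaps of the whole arm had a median of 14.8 kb but a similar mean, 34.1 kb, since they reach 310.5 kb.

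Genes that work with or under the Hox genes were bound in part. Of 6 cofactors and partners, 3 had a reproducible peak at a promoter or inside. They were hth, whose homeodomain protein brings Exd into the nucleus, tsh, a zinc-finger gene of the trunk, and disco-r, a zinc-finger gene of the head. The long gene hth held 3 peaks, none at a promoter, and the strongest had a signal of 234 and ranks of 2232, 628 and 1212 in the replicates. The peak of tsh was at a promoter (signal 112) and that of disco-r inside the gene (131). No reproducible peak was found at exd, tio or disco. Of 6 known Hox targets, only dpp, the gene of a BMP ligand that Ubx activates in the visceral mesoderm, had one. It lay inside the gene with a signal of 289 and ranks of 883, 605 and 907. The remaining targets Dll, wg, rpr, salm and vg had pooled entries only, with signals up to 86.6 at vg. These counts of 3 of 6 and 1 of 6 stand beside 17.4% of all genes and 41.3% of the protein-coding genes at least as long as Dfd. Of the bound genes hth, dpp and disco-r are long, at 132, 31.5 and 30.9 kb, while tsh has 8.42 kb. The lists are too short to set the counts apart from either share.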

How the data were processed

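ChIP-seq peak lists of the 3 replicates were used as deposited, in narrowPeak layout on dm6; lists on dm3 were not used, since the annotation is of dm6. Per the deposited file listing, the authors called relaxed lists for each replicate and for the pooled replicates with a control alignment, and the reproducible list came from an irreproducible discovery rate threshold. The sources used here name no aligner, caller, version or threshold. The deposited signal value has no stated scale and ranked entries within a list. The deposited −log10 q-value was not used for ranking, because 60.4% of reproducible peaks share its maximum. The other deposited value used is the summit offset.

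The gene models of Ensembl release 115 (BDGP6.54) were used, 18164 on 6 arms once transposable elements were removed. Mature microRNA records are among these but not among the 54 other genes of the territories. A promoter was 500 bp on either side of a TSS, and a summit took the highest class in the order promoter, UTR (5' before 3'), coding exon, noncoding exon, intron, intergenic. A replicate entry matched a site if they overlapped by 1 bp, with the nearest summit taken. Densities were compared over replicates with an exact two-sided sign-flip permutation test. No set test was used; counts stand beside the same count over all features. Replicates are numbered as biological in the labels, but all are of 1 line and the labels name no separate cultures, so their spread may be partly technical. Named were the 8 genes, every gene of the territories with a reproducible site, at most 4 members of each listed gene group by pooled signal beside those with none, every reproducible site, and the strongest entry of each gene without one. The members and lists were chosen with earlier results of these data known. The last 3 motifs, the window of 100 bp and the split by promoter windows were added after the values had been seen. Alternatives were other promoter windows, the stronger reproducible peaks, other overlap rules, other territories and each replicate left out. Checks were run on simulated data: 400 summits planted inside or outside promoter windows and 50 planted in the territories were 100% correctly placed. The planting used the same start sites and windows as the calls, so this checks the code alone. Python 3.11.15, numpy 2.4.6, pandas 2.3.3, scipy 1.17.1 and matplotlib 3.10.9 were used.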

Additional observations from a re-analysis of the deposited data

How the results depend on the processing

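Of the results recomputed, 26 alternatives gave the same reading, 15 a moved value and 3 a reversed direction. No Hox gene had a reproducible promoter peak with windows of 200 or 1000 bp, or with any replicate left out (0 to 0 genes). These outcomes were fixed in advance, although they are counted among the 26. A narrower window or a replicate left out can only remove peaks. A window of 1000 bp could add none, because the nearest reproducible summit was 2.315 kb from a Hox TSS. The relaxed pooled list gave 4 genes. With reproducible peaks above the median signal only, the territories held 5 sites, 1 Hox gene was bound at a promoter or inside, 5 sites were among the strongest entries of all replicates, the density ratio to the rest of 3R was 0.597 (0.840 as reported), and the reproducible share was 3.62%. With genes and promoters alone the values were 5 sites, a ratio of 0.574 and a share of 6.67%. Without summits at promoters of other genes the ratio turned to 1.82, above 1, since those summits leave the rest of 3R far more than the territories. Counting any relaxed entry gave 8 genes bound and 14 sites found in all replicates. The difference in density of the strongest entries, -0.163 per 100 kb as reported, was -0.442 with the strongest 1000 entries, 1.01 with all entries of each list and 1.26 outside promoter windows alone; the cause of the turn with all entries was not tested.

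With each replicate left out in turn, and a site kept only if it overlapped the strongest entries of the remaining replicates, 8 to 10 sites were left, 1 to 2 Hox genes were bound at a promoter or inside, 8 to 10 sites were found in all remaining replicates, the density ratio was 0.629 to 0.782 and the density difference -0.351 to -0.0594. Without replicate 3 there were 8 sites; without replicate 1 or without replicate 3 a single Hox gene was bound. No paired analysis was possible because there is 1 group, with no second group to share replicate numbers. The main limits are the missing read depth, the single line without an untagged control in these files, the length limit of 30000 entries on replicates 1 and 2, and the small number of sites.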

Other observations

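Other homeobox gene complexes were set beside the Hox territories. The NK cluster of mesodermal homeobox genes held 4 reproducible peaks in 178 kb, or 2.24 per 100 kb, with the highest signal at 776, and the promoter of tin, which specifies the heart and visceral muscle, was bound (signal 140, replicate ranks 2867, 2676 and 2976). The Iroquois complex held 1 in 130 kb, or 0.772 per 100 kb, and none of its genes ara, caup and mirr was bound at a promoter or inside. The engrailed and invected locus held 9 pooled entries and 0 reproducible peaks in 53.7 kb. These complexes hold few sites each, and no test of a difference between them was made.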
